A study of Homo sapiens with 346 samples.

Results

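The nuclear genes of the respiratory chain were examined by complex in live and methanol-fixed single cells of HCT-116 and of cells labelled HepG2. Members are the rows of the gene tables whose symbol starts with NDUFA, NDUFB, NDUFC, NDUFS or NDUFV and a number, with UQCR, with COX4 to COX8 or with ATP5, together with SDHA, SDHB, SDHC and SDHD. The symbols matched 89 rows in HCT-116 and 90 in HepG2, of which 2 pseudogenes in each were left out, so that 87 members of 28806 listed genes remained in HCT-116 and 88 of 29551 in HepG2. In HCT-116, 38 members belong to complex I, 4 to complex II, 9 to complex III, 13 to complex IV and 16 to complex V. HepG2 has the same rows plus COX7A1, which gives 14 in complex IV. NDUFA4 and NDUFA4L2 were counted in complex I by their symbols, although their current symbols, COXFA4 and COXFA4L2, name complex IV. A further 7 rows carry a matching symbol but encode no subunit, and they are described separately. The subunits encoded by mitochondrial DNA, and COX4I2, COX6A2 and COX7B2, were not analysed here.

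HCT-116 comes from a colorectal carcinoma and HepG2, by its name, from a liver tumour, both human. Live cells went straight to sorting after a stain for dead cells. Fixed cells were held in 80% methanol at -80 °C for 1 week, then rehydrated and sorted. Of HCT-116, 91 live and 92 fixed cells had a column, and of HepG2 68 live and 83 fixed ones, 334 in all, each made into a Smart-seq2 library of full-length cDNA. No genetic change or drug was applied to any group. HCT-116 was handled once and HepG2 on a pair of occasions, and no label says which HepG2 cell came from which, and fixed cells were sorted and made into libraries after their storage, so that treatment and library batch cannot be told apart. Each line and treatment therefore counts as 1 sample. SDs are over cells, no test between groups was run, and words such as higher and lower below describe these cells only.

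Total reads per cell, recovered from the transcript tables, ranged from 0.2 M to 5.3 M, with medians of 2.5 M (live) and 1.8 M (fixed) for HCT-116 and of 2.4 M and 2 M for HepG2. Ribosomal RNA, which is not part of the respiratory chain but shares the fixed total of each cell, made up 25.7% of listed TPM in live HCT-116 cells and 7.86% in fixed ones, and 6.28% and 2.45% in HepG2. One live and one fixed HepG2 column hold equal values and 6 other fixed HepG2 columns are very similar to each other. Of 17 hepatocyte markers, 9 were listed and 0 exceeded 1 TPM in at least 50% of the HepG2-labelled cells, with SERPINA1 the highest at a mean of 2.27 TPM in live cells, whereas the epithelial genes EPCAM, CDH1, KRT8, KRT18 and KRT19 passed in both lines. CDX2, an intestinal transcription factor, passed in HCT-116 and TFF3, a secreted mucosal peptide, in HepG2. Of 17 intestinal epithelium markers, 11 were listed in HCT-116 and 13 in HepG2, and 6 passed in each line. In both treatments, CEACAM5, MUC2, GPA33 and CDH17 had means under 0.1 TPM in HCT-116. KRT20, VIL1, CDX2 and MUC2 did in HepG2. The name HepG2 below is the label alone.

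The respiratory chain moves electrons from NADH and succinate to oxygen across the inner mitochondrial membrane. Complex I takes electrons from NADH and complex II from succinate, both pass them through ubiquinone to complex III, cytochrome c carries them to complex IV, and complexes I, III and IV pump protons whose return through complex V drives ATP synthesis. Complex II is encoded wholly in the nucleus, while the other complexes also hold subunits made inside the mitochondrion. Nuclear genes of the chain are known for promoters with sites for NRF1, for the ETS factor GABPA (also called NRF2) and for YY1.

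The promoters of 5 genes that differed between the lines in both treatments are shown first. SDHB and SDHD of complex II were lower in HepG2-labelled cells, and SDHA of the same complex, NDUFB1 of complex I and ATP5E of complex V were higher. Each sequence runs from 150 bases before to 20 bases after the annotated start, 5′ to 3′ on the gene's strand (RefSeq, GRCh38.p14), and capitals mark the letters CGCATGCG (NRF1), CCGGAAG (ETS) and AAGATGG (YY1) or their reverse complements.
SDHB, chr1:17054013-17054182, minus strand: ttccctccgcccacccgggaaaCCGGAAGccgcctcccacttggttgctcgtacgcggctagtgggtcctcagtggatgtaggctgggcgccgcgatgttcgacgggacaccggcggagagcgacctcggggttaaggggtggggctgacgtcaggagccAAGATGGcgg
SDHD, chr11:112086723-112086892, plus strand: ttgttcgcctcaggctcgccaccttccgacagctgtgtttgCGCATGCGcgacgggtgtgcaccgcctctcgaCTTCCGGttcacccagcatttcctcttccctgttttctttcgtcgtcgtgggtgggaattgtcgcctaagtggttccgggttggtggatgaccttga
SDHA, chr5:218170-218339, plus strand: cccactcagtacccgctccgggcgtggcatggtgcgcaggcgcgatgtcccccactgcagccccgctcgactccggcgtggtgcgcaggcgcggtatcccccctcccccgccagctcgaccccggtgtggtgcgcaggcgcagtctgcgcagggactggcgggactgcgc
NDUFB1, chr14:92121687-92121856, minus strand: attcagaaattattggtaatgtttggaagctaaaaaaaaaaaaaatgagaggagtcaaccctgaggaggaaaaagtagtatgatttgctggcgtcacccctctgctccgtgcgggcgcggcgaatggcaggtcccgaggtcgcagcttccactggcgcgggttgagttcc
ATP5E, chr20:59032316-59032485, minus strand: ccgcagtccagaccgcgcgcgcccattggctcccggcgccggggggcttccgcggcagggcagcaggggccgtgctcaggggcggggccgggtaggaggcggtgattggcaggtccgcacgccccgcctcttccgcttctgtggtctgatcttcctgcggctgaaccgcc

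The SDHB window holds an ETS match before the start and a YY1 match after it, and the SDHD window an NRF1 match and then an ETS match before the start. The windows of SDHA, NDUFB1 and ATP5E hold 0 of the 3 motifs as spelled above. The same is true over the full 300 bases searched (250 before to 50 after the start). Only these exact letters were searched, so other forms of the sites were not counted. A match is a run of letters and not evidence of binding. Promoters of 66 of the 81 members were matched by symbol. NRF1 letters stood in 10 of them (15.2%, against 2.19% of 27305 promoters of that length), ETS letters in 19 (28.8% against 10.7%) and YY1 letters in 16 (24.2% against 6.06%), with both strands searched and any overlaps counted. At least 1 of the 3 was found in 36 member promoters (54.5%, against 17.4% of all). By complex these were 15 of 33 matched genes in complex I, 2 of 3 in complex II, 5 of 7 in complex III, 6 of 12 in complex IV and 8 of 11 in complex V. ATP5I and ATP5J, both of complex V, held all 3.

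Nearly all of the chain was present in every cell. TPM is a level per transcript length scaled to the sum of each cell, so it can be compared between genes. The number of members with a TPM above 0 per cell was 75.99 ± 0.753 (SD, n = 91) in live HCT-116 cells and 75.4 ± 0.837 (n = 92) in fixed ones, and 76.2 ± 0.675 (n = 68) and 75.5 ± 0.800 (n = 83) in HepG2. In each group, 75 members were found in at least 95% of cells. The median member had a mean of 213 TPM in live HCT-116 cells and 239 TPM in fixed ones and of 193 and 278 TPM in HepG2, where the median gene with a mean of at least 1 TPM had between 7.35 and 8.25 TPM. Together the members held 2.31%, 2.86%, 2.95% and 3.74% of listed TPM in the same order of groups, and 66 to 68 of them ranked among the 1000 highest genes.

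**Figure D1:**
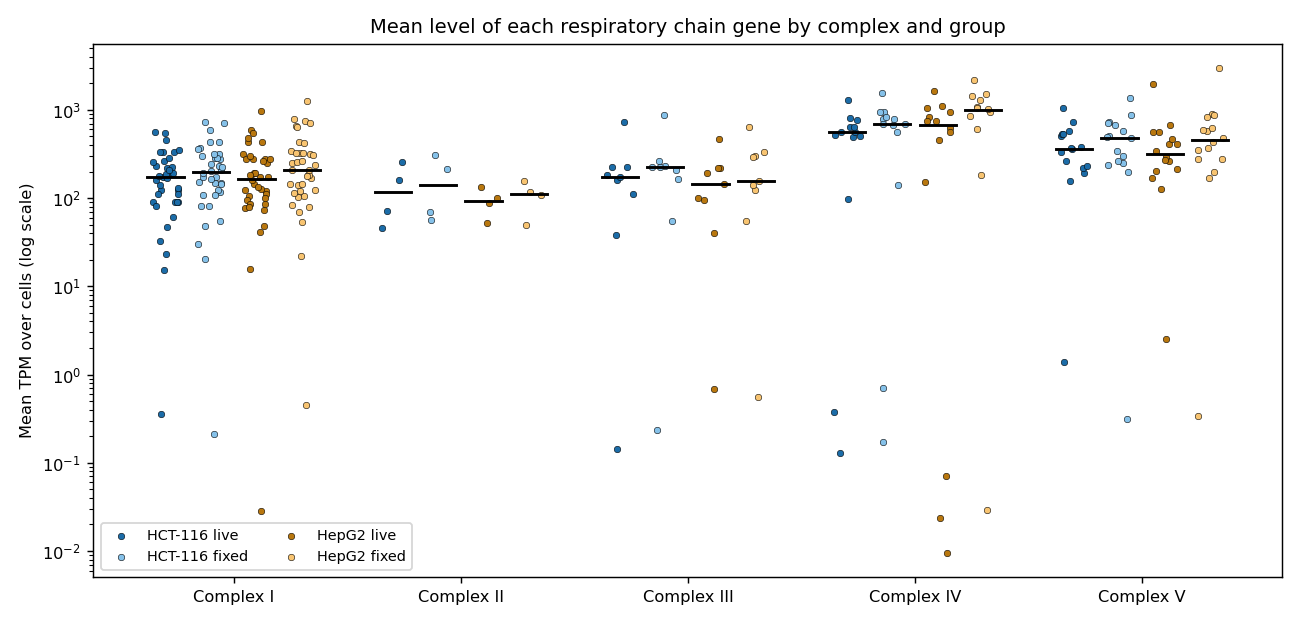
Mean TPM over cells (log axis) of each member by complex, 1 point per gene and group, with a bar at the median of all members of the complex. The bars of complex IV are the highest, the few points under 3 TPM are tissue-restricted or copy genes, and means of 0 cannot be drawn.

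The lowest rows were forms known from other tissues or copies of genes. NDUFA4L2, a hypoxia-induced paralog of NDUFA4, UQCRHL, an intronless copy of the hinge protein gene UQCRH, and the testis forms COX6B2 and COX8C had means under 1 TPM in all 4 groups. COX7A1, the muscle form of subunit 7A, was listed in 1 live HepG2 cell and at 0 in all 83 fixed ones. Their ubiquitous counterparts were abundant: in live HCT-116 cells NDUFA4 had 112.1 ± 32.9 TPM, UQCRH 725 ± 190.7 TPM, COX6B1 558 ± 136.9 TPM, COX7A2 509 ± 130.8 TPM and COX8A 813 ± 190 TPM. Reads of UQCRH and UQCRHL, and of ATP5L and its retrocopy ATP5L2, may be split between near-identical copies, so the low rows of each pair are uncertain.

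Complex IV had the highest level per gene and complex II the lowest. The median member of complex IV, which hands electrons to oxygen, had 556 TPM in live HCT-116 cells and 681 TPM in live HepG2 cells. For complex V these medians were 365 and 319 TPM, for complex III 174.3 and 144.1, for complex I 172.9 and 165.4, and for complex II 116.4 and 93.8 TPM. COX7C, a membrane subunit of complex IV, was the most abundant member in HCT-116. Its lowest, median and highest values were 585, 1304 and 2224 TPM in the live and 306, 1581 and 2395 TPM in the fixed group, which overlapped over most of their range. In HepG2-labelled cells ATP5E, the epsilon subunit of the F1 head, was the highest, and it ranked 27th of all genes in live and 22nd in fixed HepG2-labelled cells. In complex I the highest members were NDUFS5 (556 TPM) in live and NDUFB9 (727 TPM) in fixed HCT-116 cells and NDUFA1 in HepG2 (970 and 1261 TPM), and NDUFA5 was the lowest above 1 TPM (15.5 to 22.2 TPM over the groups). UQCRH led complex III in all 4 groups (465 to 872 TPM), and UQCRB, a small subunit, had 38.4 to 54.9 TPM.

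Within a cell, the share of each complex in the summed TPM of all members is free of any scaling between cells. Complex I took 31.6 ± 1.42% in live HCT-116 cells and 31.1 ± 1.55% in fixed ones, and 32.1 ± 1.63% and 31 ± 1.58% in HepG2. Complex IV took 30.1 ± 1.69% and 30.5 ± 2.28% in HCT-116, against 34.2 ± 2.02% and 34.3 ± 2.09% in HepG2. The shares of complex V were 27.9 ± 1.68%, 28.2 ± 2.06%, 26.6 ± 1.78% and 27.7 ± 1.82%. Complex III stood at 8.04 ± 0.694% and 7.96 ± 0.724% in HCT-116 and at 5.68 ± 0.648% and 5.75 ± 0.670% in HepG2, and complex II at 2.35 ± 0.444%, 2.30 ± 0.514%, 1.41 ± 0.339% and 1.19 ± 0.287%. The treatments thus differed by less than 1 SD over cells in every complex, while the lines differed by more than 1 SD in complexes II, III and IV.

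**Figure D2:**
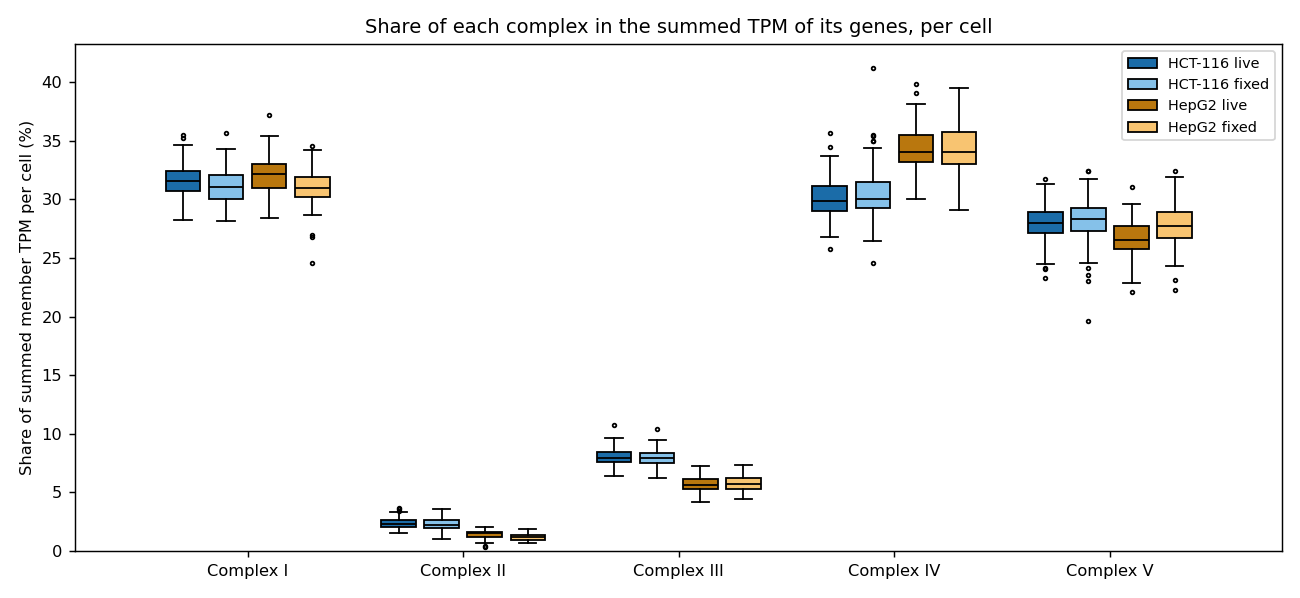
Share (%) of each complex in the summed TPM of all members, per cell, by group. Boxes span the quartiles with a line at the median, whiskers reach 1.5 times the box height, and points are cells beyond. Live and fixed boxes of a line overlap throughout, and complexes II and III sit lower and complex IV higher in HepG2-labelled cells.

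The first comparison asks how methanol fixation left each complex. In HCT-116, 71 of 75 members with a mean of at least 1 TPM (94.7%) had a higher mean in fixed cells, but this is close to other abundant genes. The share was 61.4% over all 11742 genes with such a mean and 87.8% over the 931 genes of at least 100 TPM, where 62 of 64 members were higher. On the log2 scale the median ratio of mean TPM, fixed over live, was 0.33 over the members, 0.17 over all genes and 0.33 over genes of at least 100 TPM. By complex it was 0.32 in I (37 members), 0.27 in II (4), 0.35 in III (8), 0.33 in IV (11) and 0.38 in V (15). At least 1.5-fold apart were 0 members upwards (background 12% of all genes and 7.52% of genes of at least 100 TPM) and 1 downwards, which is 1.33% of 75 (background 16.2% and 2.69%).

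In HepG2-labelled cells the members stood further above the rest. A higher mean in fixed cells was found for 70 of 76 members (92.1%, background 60.1% of 12418 genes), and for 63 of 66 members of at least 100 TPM (95.5%, background 87.8%). The median log2 ratio was 0.45 over the members, against 0.15 over all genes and 0.37 over genes of at least 100 TPM, and by complex 0.43 in I, 0.11 in II, 0.53 in III, 0.45 in IV and 0.48 in V. At least 1.5-fold higher were 13 members (17.1%, background 15.5%; 19.7% of those of at least 100 TPM, background 13.5%). They were the complex I subunits NDUFA3 and NDUFA7, the iron-sulfur subunit SDHB, the small complex III subunits UQCRQ, UQCR10 and UQCR11, the complex IV subunits COX6A1, COX6B1 and COX7A2, and ATP5E, ATP5G2, ATP5G3 and ATP5J2 of complex V. At least 1.5-fold lower was 1 member, ATP5L2 (1.32%, background 17.3%), and 0 of those of at least 100 TPM (background 3.23%).

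These directions rest partly on how each cell was scaled. Listed TPM per cell had medians of 895442 live and 961172 fixed in HepG2, and of 993455 and 991193 in HCT-116. Bringing cells to the same sum also removes this difference in HepG2. Its part was not separated from that of ribosomal RNA. With ribosomal RNA left out and each cell brought back to the same sum, the HCT-116 medians by complex lay between -0.04 and 0.07, beside -0.15 for all genes, and those of HepG2 between -0.05 and 0.36, beside -0.03 for all genes. The medians of complex II turned negative in both lines. The 13 members at least 1.5-fold higher in fixed HepG2-labelled cells were then 0, beside 9.09% of all genes and 3.45% of genes of at least 100 TPM. A higher mean in fixed cells was then found for 46 of 75 HCT-116 members (61.3%), beside 35.8% of all genes and 56.1% of genes of at least 100 TPM. In HepG2 it was 65 of 76 (85.5%), beside 48.2% and 76.7%. As deposited, 36 of 75 members in HCT-116 and 55 of 76 in HepG2 lay above the median ratio of genes of at least 100 TPM.

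**Figure D3:**
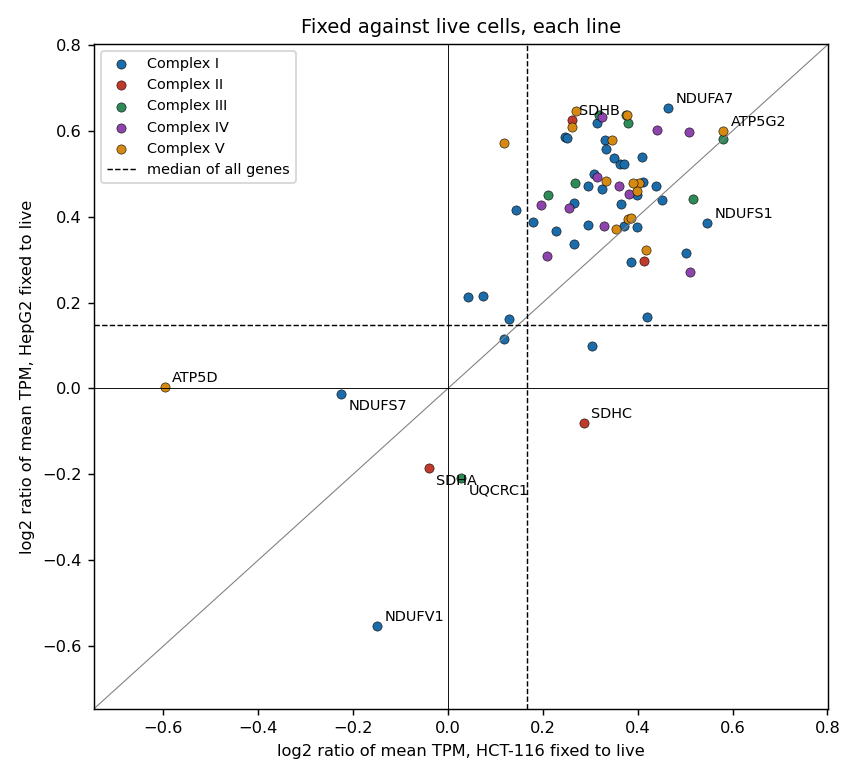
Log2 ratio of mean TPM in fixed to live cells for 75 members, HCT-116 on the x axis and HepG2 on the y axis, coloured by complex. Dashed lines mark the medians of all genes (0.17 and 0.15). Most members lie at the upper right, and ATP5D, NDUFS7, NDUFV1, SDHA, SDHC and UQCRC1 lie apart from them.

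Complex I holds 7 core subunits encoded in the nucleus, which carry the flavin and iron-sulfur clusters, and many further subunits around them. The core subunits had a median log2 ratio of 0.18 in HCT-116 and 0.17 in HepG2, the other 30 of 0.33 and 0.46. With ribosomal RNA left out the core medians were -0.14 and -0.0034. NDUFV1, which holds the flavin that oxidises NADH, gave 90.6 ± 31.4 TPM in live HCT-116 cells and 81.7 ± 32.4 TPM in fixed ones (log2 ratio -0.15). In HepG2 its values ran from 2.41 to 204 TPM in live cells and from 2.41 to 211 TPM in fixed ones, with a fixed median of 82.5 TPM, and the means of 123.1 ± 40.2 and 83.9 ± 41.5 TPM gave a log2 ratio of -0.55. The ranges overlap almost wholly, the lowest value in both comes from the column that is listed as live and as fixed, and 15.7% of fixed cells lay above the live median. NDUFV1 passed 1.5-fold lower in 6 of 9 alternative settings, which ranged from -0.77 to -0.23.

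NDUFS7, an iron-sulfur subunit next to the ubiquinone site, had means of 193 ± 64.9 TPM in live HCT-116 cells and 165.2 ± 78.9 TPM in fixed ones (-0.23), and of 79.2 ± 37.4 and 78.5 ± 35.9 TPM in HepG2 (-0.01). NDUFS1, the largest iron-sulfur subunit, was at the other end in HCT-116, with 33.02 ± 13.3 TPM (live) and 48.2 ± 23.2 TPM (fixed) (0.55), and at 0.38 in HepG2. NDUFV2, NDUFS3 and NDUFS8 had ratios of 0.30, 0.18 and 0.12 in HCT-116, with 0.38, 0.39 and 0.12 in HepG2. Among the other subunits, NDUFA12 reached 0.50 in HCT-116 and 0.32 in HepG2. NDUFA7 and NDUFA3 reached 0.65 and 0.62 in HepG2, where 88% of fixed cells lay above the live median of NDUFA7.

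In complex II the catalytic flavoprotein SDHA had ratios just under 0 as deposited, and over the alternative settings they ran from -0.36 to -0.02 in HCT-116 and from -0.35 to 0.21 in HepG2. Its means were 72.3 ± 30.5 TPM in live HCT-116 cells and 70.4 ± 30.6 TPM in fixed ones (-0.04). In HepG2 its lowest, median and highest values were 4.86, 126.8 and 292 TPM live and 4.86, 106.4 and 265 TPM fixed, with a ratio of means of -0.19 and overlapping ranges. SDHB, its iron-sulfur partner, had 257 ± 75.6 and 308 ± 97.2 TPM in HCT-116 (0.26) and 100 ± 45.7 and 154.8 ± 69.2 TPM in HepG2 (0.62). In HepG2 the lowest, median and highest SDHB values were 31.01, 86.9 and 256 TPM live and 19.2, 155.8 and 407 TPM fixed, so that the ranges overlapped while 80.7% of fixed cells lay above the live median. The membrane anchor SDHD had 0.41 and 0.30, and SDHC 0.29 and -0.08. Within a cell, SDHA took 13.5 ± 5.12% of complex II TPM in live HCT-116 cells and 11.2 ± 4.70% in fixed ones, and 34.2 ± 8.88% and 27.01 ± 10.49% in HepG2.

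Complex III, which passes electrons from ubiquinol to cytochrome c, held a pair of structural core proteins with unlike ratios. UQCRC2 had 0.58 in both lines, with means of 110.5 ± 31.5 and 165.2 ± 48.4 TPM in HCT-116 and 94.7 ± 35.9 and 141.6 ± 48.9 TPM in HepG2. UQCRC1 had 0.03 and -0.21, which ran from -0.28 to 0.07 and from -0.43 to 0.08 over the settings, with 225 ± 64.4 and 229 ± 71.1 TPM in HCT-116 and 144.1 ± 47.7 and 124.7 ± 50.8 TPM in HepG2. The Rieske iron-sulfur protein UQCRFS1 had 0.21 and 0.45, UQCRB 0.52 and 0.44, and UQCRQ and UQCR11 both 0.64 in HepG2. In complex IV all 11 members with a mean of at least 1 TPM were higher in fixed cells in both lines as deposited, and with ribosomal RNA left out 8 of 11 were in HCT-116 (not COX5A, COX7C and COX8A) and 11 of 11 in HepG2. Their ratios ran from 0.20 (COX5A) to 0.51 (COX6A1 and the supercomplex factor COX7A2L) in HCT-116 and from 0.27 (COX7A2L) to 0.63 (COX6B1) in HepG2. COX4I1, COX7B and COX8A had 0.33, 0.38 and 0.21 in HCT-116, with 0.38, 0.45 and 0.31 in HepG2, and COX7A2 had 0.44 and 0.60. The COX7B mean of 823 TPM in fixed HCT-116 cells, with an SD of 939 TPM, includes a cell at 9441 TPM, where the median cell had 733 TPM.

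In complex V, the ATP synthase, ATP5D was the 1 member at least 1.5-fold lower in fixed HCT-116 cells. This gene for the delta subunit of the F1 head had a lowest, median and highest value of 135.8, 348 and 761 TPM in live and of 31.6, 236 and 471.4 TPM in fixed HCT-116 cells. The ranges overlapped, and 9.78% of fixed cells lay above the live median. The means were 358 ± 117.1 and 237 ± 94.3 TPM, a ratio of 0.661 and a log2 ratio of -0.60, which ranged from -0.91 to -0.49 over the 6 alternative settings and passed 1.5-fold in 4 of them. In HepG2 the means were 167.3 ± 46.8 and 167.7 ± 64.1 TPM (0.00). Within the 5 subunits of F1, ATP5D took 12.4 ± 3.21% in live HCT-116 cells and 6.72 ± 2.37% in fixed ones, and 5.10 ± 1.51% and 3.54 ± 1.41% in HepG2. The alpha, beta and gamma subunits ATP5A1, ATP5B and ATP5C1 had ratios of 0.40, 0.38 and 0.40 in HCT-116, with 0.48, 0.39 and 0.46 in HepG2. The membrane ring is built from 1 protein made by 3 genes, and ATP5G1, ATP5G2 and ATP5G3 had 0.33, 0.58 and 0.27 in HCT-116, with 0.48, 0.60 and 0.65 in HepG2. ATP5I, subunit e, had 0.12 in HCT-116 and 0.57 in HepG2, while ATP5H and ATP5J2 had 0.42 and 0.38 in HCT-116 and, in HepG2, 0.32 and 0.64.

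ATP5L2, the retrocopy of the subunit g gene ATP5L, was listed above 0 in 57 of 91 live HCT-116 cells (62.6%, exact 95% interval 51.9% to 72.6%, counting error only) and in 12 of 92 fixed ones (13.04%, 6.93% to 21.7%). In HepG2 it was found in 56 of 68 live cells (82.4%, 71.2% to 90.5%) and in 20 of 83 fixed cells (24.1%, 15.4% to 34.7%). Its means were 1.38 ± 1.54 and 0.315 ± 1.23 TPM in HCT-116, under the minimum of 1 TPM over both treatments, and 2.52 ± 2.15 and 0.336 ± 0.862 TPM in HepG2. ATP5L had 0.35 and 0.58, so that in HepG2 the copy and its parent had ratios of opposite sign. Fixed cells also had fewer genes found per cell, with medians of 10359 against 12031 live in HCT-116 and 12293 against 13887 in HepG2. The part of this in the detection of ATP5L2 was not tested.

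Cells of the lines are separate, so their fixed to live ratios share no sample. Of 75 members measured in both, 72 had a fixed to live ratio of the same sign in HCT-116 and HepG2 as deposited (96%, beside 76.7% of all genes and 93.8% of genes of at least 100 TPM in both). With ribosomal RNA left out 52 did (69.3%, beside 67.8% and 69.8%), so that these shares are close to those of other abundant genes. Of the 75, 0 were at least 1.5-fold apart in both lines, where 3.8% of 10392 genes were higher and 9.95% lower in both. Over these 75 genes, which are not independent of each other, Pearson's r between the lines was 0.60 and Spearman's rho 0.30.

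Base composition moved with the fixed to live ratio in HCT-116 and over all genes. Among the members in HepG2, those of at least 60% GC had a lower median ratio, while the rank correlation was weak. GC content is that of a reference transcript (GENCODE release 44), which need not be the one the authors quantified, and ATP5D has the highest among the members, 69.6%. In HCT-116 the 7 members of at least 60% GC (NDUFA11, NDUFA13, NDUFB7, NDUFS7, NDUFS8, NDUFV1 and ATP5D) had a median log2 ratio of 0.12, the 25 between 50% and 60% of 0.31, and the 43 below 50% of 0.37. All genes in the same ranges had -0.58, -0.05 and 0.30. In HepG2 the members had 0.12, 0.48 and 0.45, beside -0.29, 0.03 and 0.26 for all genes. Spearman's rho between GC content and the ratio was -0.39 over 75 members and -0.48 over all genes in HCT-116, and -0.10 over 76 members and -0.30 over all genes in HepG2. For transcript length, rho was 0.20 and -0.12 over the members. The part of GC content in single ratios was not tested.

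The stretches that follow, of a pair chosen for its difference in HCT-116, set side by side a GC-rich and a GC-poorer gene of the F1 head, 120 bases of the longest coding exon of ATP5D (exon 2, 70.8% GC) and of ATP5C1 (exon 4, 44.2% GC), GRCh38, plus strand, with runs of 4 or more G and C in capitals. ATP5D, at 68.3% GC over its 504 coding bases, was lower in fixed HCT-116 cells, and ATP5C1, at 43.96% over 894, was higher. In HepG2 the ratio of ATP5D was 0.00, and the GC-rich members NDUFA11 and NDUFA13 were higher in fixed cells of both lines, at 0.35 and 0.37 in HCT-116 and, in HepG2, at 0.54 and 0.43.
ATP5D, chr19:1242456-1242575: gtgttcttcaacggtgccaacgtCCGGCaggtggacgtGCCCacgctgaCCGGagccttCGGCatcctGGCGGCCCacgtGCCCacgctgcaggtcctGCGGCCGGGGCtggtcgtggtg
ATP5C1, chr10:7798990-7799109: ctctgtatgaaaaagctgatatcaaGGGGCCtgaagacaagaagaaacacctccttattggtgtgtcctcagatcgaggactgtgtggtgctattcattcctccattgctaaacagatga
In the printed bases, 40 of 120 lie in such runs in ATP5D and 6 of 120 in ATP5C1.

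**Figure D4:**
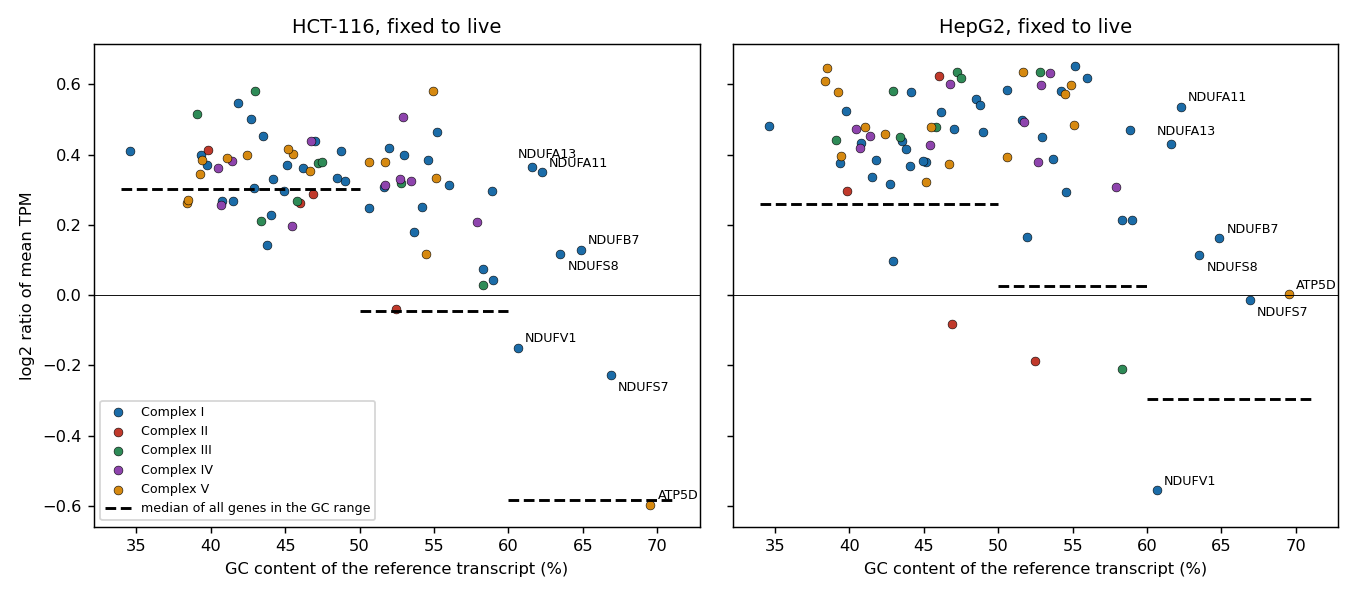
Log2 ratio of mean TPM in fixed to live cells against the GC content (%) of the reference transcript, 1 point per member, HCT-116 left and HepG2 right. Tissue-restricted and copy forms (and COX7A2L) are not drawn, and dashed lines give the median of all genes below 50%, from 50% to 60% and above 60% GC. ATP5D at 69.6% GC is the lowest point in HCT-116 and NDUFV1 the lowest in HepG2.

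The second comparison asks how the lines differ, separately among live and among fixed cells. The tables of the lines were normalized separately. Among live cells, 15 of 76 members were at least 1.5-fold higher in HepG2-labelled than in HCT-116 cells (19.7%, background 32.4%) and 13 at least 1.5-fold lower (17.1%, background 27.9%). Among fixed cells, 17 of 75 were higher (22.7%, background 32.5%) and 9 lower (12%, background 27.6%). All 4 shares lie below those of all genes. They also lie below those of genes of at least 100 TPM, 24.3% higher and 27.4% lower live and 25% and 26.6% fixed. With cells rescaled by their median ratio over genes, 32% of members were higher among fixed cells. That stood beside 33.5% of all genes and 28% of genes of at least 100 TPM, while the other shares stayed below both. This rescaling moved with the equal live and fixed HepG2 columns. With those columns also left out, 25.5% of genes of at least 100 TPM were higher among fixed cells. The highest complex median there went from 0.50 to 0.42. Live and fixed cells are different cells but for 1 column, and 13 members were higher and 8 lower in both, with 0 in opposite directions, where 25.8% and 22.3% of 11546 genes were higher and lower in both. Across the 75 members, the live and fixed ratios had a Pearson's r of 0.96.

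**Figure D5:**
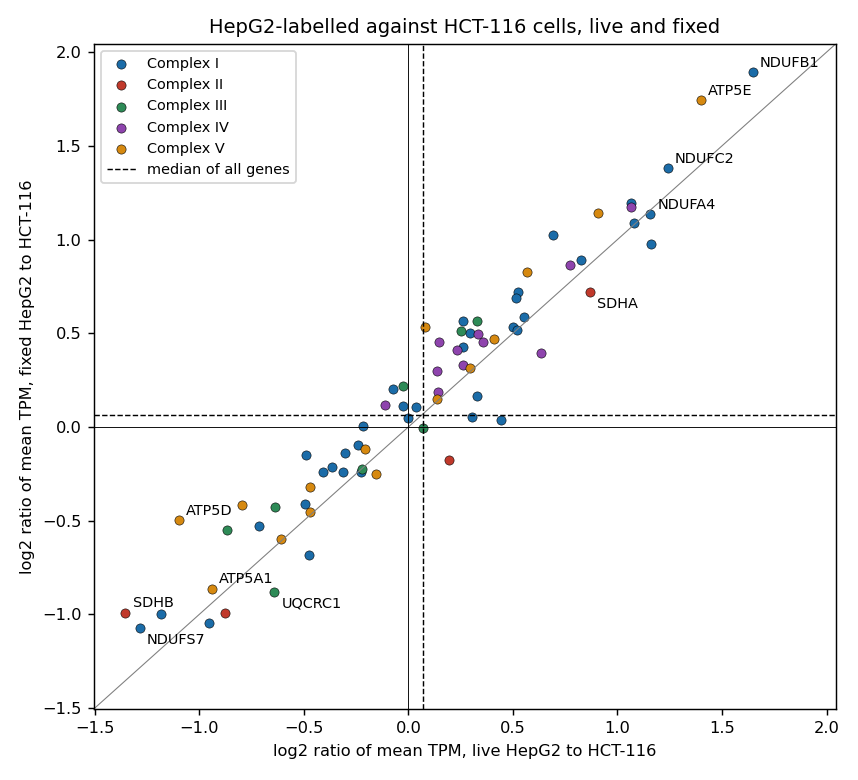
Log2 ratio of mean TPM in HepG2-labelled to HCT-116 cells, live cells on the x axis and fixed cells on the y axis, for 75 members coloured by complex, with dashed lines at the medians of all genes. Points lie along the diagonal, from NDUFS7 and SDHB at the lower left to ATP5E and NDUFB1 at the upper right.

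Complex I held members at both ends. NDUFB1, a small membrane arm subunit, had a lowest, median and highest value of 35.7, 131.8 and 469 TPM in live HCT-116 cells and of 156.9, 408 and 924 TPM in live HepG2-labelled cells. Every live HepG2-labelled cell lay above the HCT-116 median, although the ranges overlapped. The means were 140 ± 68.4 and 437 ± 144.4 TPM live, a log2 ratio of 1.65, and 175.6 ± 81.4 and 652 ± 192.1 TPM fixed, a log2 ratio of 1.89. NDUFC2, next in complex I, had 47.1 ± 14.99 against 111.3 ± 30.8 TPM live (1.24) and 55.2 ± 22.2 against 143.5 ± 40.2 TPM fixed (1.38). NDUFA1, NDUFA4, NDUFA12, NDUFA13, NDUFB2 and NDUFV3 were also at least 1.5-fold higher in both treatments. NDUFS7 was at the other end, with 193 ± 64.9 against 79.2 ± 37.4 TPM live (-1.29) and 165.2 ± 78.9 against 78.5 ± 35.9 TPM fixed (-1.07). NDUFA11 had -1.18 and -0.997 and NDUFB8 -0.96 and -1.05. Of the core subunits, NDUFV1, NDUFS1, NDUFS3 and NDUFS8 had 0.44, 0.33, 0.29 and 0.52 live and 0.04, 0.17, 0.50 and 0.52 fixed, and NDUFV2 -0.50 and -0.41.

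Complex II was split, with its catalytic subunit SDHA higher and SDHB and SDHD lower in HepG2-labelled cells of both treatments. SDHB had a lowest, median and highest value of 87.9, 253 and 535 TPM in live HCT-116 cells and of 31.01, 86.9 and 256 TPM in live HepG2-labelled cells, of which 1.47% lay above the HCT-116 median. Its log2 ratios were -1.35 live and -0.99 fixed, and those of SDHD -0.88 and -0.995. SDHA had 0.87 live and 0.72 fixed, with 82.4% and 83.1% of HepG2-labelled cells above the HCT-116 median, and SDHC 0.19 and -0.18. SDHB took 47.6 ± 7.75% of complex II TPM in live HCT-116 cells and 47.2 ± 7.90% in fixed ones, against 27.7 ± 9.07% and 35.9 ± 11.2% in HepG2.

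In complex III, UQCRC1 was lower in HepG2-labelled cells, with log2 ratios of -0.64 live and -0.88 fixed, and so was UQCR11, a small subunit, with -0.87 and -0.55. UQCRH had -0.64 and -0.43, UQCRC2 -0.22 in both, UQCRFS1 -0.02 and 0.22, UQCRQ 0.25 and 0.51 and UQCR10 0.33 and 0.56. The median of the complex was -0.12 live and -0.11 fixed. In complex IV, 10 of 11 members were higher among live cells (background 52.6% of all genes and 48.9% of genes of at least 100 TPM). Among fixed cells 11 of 11 were (background 52.5% and 48.8%). As a group complex IV was higher, with medians of 0.26 live and 0.41 fixed, beside 0.07 for all genes in each. COX6C led with 524 ± 124.3 against 1096 ± 365 TPM live (1.06) and 673 ± 131.1 against 1521 ± 552 TPM fixed (1.18), and COX6A1 had 0.77 and 0.86. COX5A was the lowest at -0.11 and 0.12, and COX4I1 and COX7A2 had 0.14 each live and 0.19 and 0.30 fixed. With ribosomal RNA left out, 7 of 11 were higher among live cells, beside 46.4% of all genes and 40.4% of genes of at least 100 TPM. Among fixed cells 11 of 11 were, beside 51.3% and 47.5%. The complex IV medians were then 0.10 and 0.38, beside -0.10 and 0.04 for all genes.

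Complex V differed in make-up. ATP5E had a lowest, median and highest value of 275, 716 and 1314 TPM in live HCT-116 cells and of 886, 1887 and 3500 TPM in live HepG2-labelled cells. All HepG2-labelled cells lay above the HCT-116 median, with some overlap of the ranges. Means were 739 ± 239 against 1946 ± 554 TPM live (1.40) and 886 ± 247 against 2969 ± 790 TPM fixed (1.74). ATP5L had 0.91 and 1.14. The alpha and beta subunits ATP5A1 and ATP5B were lower, at -0.94 and -0.61 live and -0.86 and -0.60 fixed, while the gamma subunit ATP5C1 had 0.41 and 0.47 and ATP5D -1.10 and -0.50. Among the F1 subunits, ATP5E took 25.3 ± 6.15% in live HCT-116 cells and 25.2 ± 5.09% in fixed ones, and 57.1 ± 7.30% and 60.4 ± 6.54% in HepG2, whereas ATP5B took 35.8 ± 4.71% and 38.96 ± 5.40% in HCT-116 and, in HepG2, 19.7 ± 4.597% and 18.5 ± 4.42%. Of the c subunit genes, ATP5G1 took the largest mean share in HCT-116 (49.8 ± 7.55% live, 47.7 ± 10.53% fixed) and ATP5G2 in HepG2 (44.3 ± 9.32% live, 45.8 ± 11.1% fixed), where ATP5G1 held 42.3 ± 9.70% and 39.8 ± 11.4%. In live HepG2-labelled cells these shares differed by less than 1 SD and the median share of both genes was 43.2%.

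Over all 9 alternative settings, 11 members stayed at least 1.5-fold higher in HepG2-labelled cells in both treatments, namely NDUFA1, NDUFA4, NDUFA12, NDUFA13, NDUFB1, NDUFC2, NDUFV3, COX6A1, COX6C, ATP5E and ATP5L. The 6 that stayed lower were NDUFA11, NDUFB8, NDUFS7, SDHB, SDHD and ATP5A1. How many of all genes stayed so in every setting was not counted. As deposited, 25.8% of 11546 genes were higher and 22.3% lower in both treatments. The setting that leaves out 6 fixed columns cannot change a live ratio. Of the 9 higher members with a matched promoter 5 held at least 1 of the 3 motifs, and of the 6 lower members 3 did. The printed windows therefore do not stand for either direction.

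Among the 7 rows that encode no subunit, NDUFC2-KCTD14, the read-through of NDUFC2 into its neighbour, differed most between the lines. It had a mean of 15.8 ± 10.53 TPM in live HCT-116 cells and 22.97 ± 16.7 TPM in fixed ones, found in 92.3% and 84.8% of cells, against 0.396 ± 1.86 and 0.630 ± 3.37 TPM in HepG2, found in 7.35% and 7.23%. It took 24.2 ± 14.4% and 28.2 ± 17.9% of the summed TPM of NDUFC2 and the read-through in HCT-116, and 0.365 ± 1.81% and 0.459 ± 2.45% in HepG2. Both rows share sequence, so their split is an estimate of the quantification. ATP5S, which encodes coupling factor B and no subunit, had 4.57 ± 6.16 and 6.82 ± 9.47 TPM in HCT-116 against 20.95 ± 12 and 19.98 ± 13.1 TPM in HepG2, and ATP5SL had means of 40.5 to 55.2 TPM over the groups. The other read-through, ATP5J2-PTCD1, and the antisense rows NDUFA6-AS1, NDUFB2-AS1 and NDUFV2-AS1 had means of 0.198 to 1.42 TPM, and libraries of this kind do not keep the strand, so the antisense reads cannot be told from those of the overlapping genes.

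Transcript usage, from CPM per transcript that was not divided by length, differed for a few members. The noncoding NDUFA10 transcript NR_136155.1 made up 27.8% of NDUFA10 CPM in live HCT-116 cells and 13.5% in fixed ones, and 27.3% and 11.3% in HepG2. Between lines, NM_001001503.1 of NDUFV3, a subunit of the NADH module, took 20.6% and 27.3% in live and fixed HCT-116 cells against 50.6% and 56.3% in HepG2. The transcript NM_004552.2 of NDUFS5 took 24.1% and 25.01% against 55.9% and 58.8%, and NM_004889.3 of ATP5J2 26.1% and 24.7% against 48.5% and 46.8%. These shares are ratios of group means and have no SD.

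Variation over cells was smaller for the median member than for the median abundant gene. The median coefficient of variation (SD over mean) of the members was 0.30 in live HCT-116 cells and 0.32 in fixed ones and 0.33 and 0.30 in HepG2, where genes of at least 100 TPM had 0.34, 0.38, 0.37 and 0.36. In fixed cells it exceeded the live value for 50 of 75 members of HCT-116 (66.7%) and for 21 of 75 of HepG2 (28%), beside 85.1% and 66.9% of all genes and 76.95% and 39.4% of genes of at least 100 TPM. COX6A1 had the lowest value of any member in fixed cells of both lines (0.19 and 0.17).

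Over all pairs pooled, members of 1 complex did not follow each other more closely over cells than members of different complexes. Most pairs within a complex were of complex I, 666 of 860 in HCT-116 and 666 of 875 in HepG2. The median Pearson's r of log2(TPM + 1) between members of the same complex was 0.23 in live HCT-116 cells and 0.23 in fixed ones and 0.37 and 0.20 in HepG2, against 0.26, 0.26, 0.39 and 0.22 between complexes. Complex V had the highest median in HCT-116 and fixed HepG2 cells (0.44, 0.39 and 0.25), and 0.45 in live HepG2 cells, where the 6 pairs of complex II had 0.47. These medians lay above those between complexes. Complex IV had 0.28 and 0.35 in live and fixed HCT-116 cells, also above, and 0.39 and 0.22 in HepG2, close to them. Complexes I and III lay below in every group. ATP5A1 and ATP5B, which alternate in the F1 head, had an r of 0.70 in live HCT-116 cells. Cells of a group share a library batch and differ in depth, so these values are descriptions.

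Of 61 further genes of the pathway, 60 were listed. The 47 listed assembly factors had a median fixed to live log2 ratio of 0.24 in HCT-116, where 40 had a higher mean (85.1%, background 61.4% of all genes). In HepG2 the median was 0.32, and 37 of 46 with a mean of at least 1 TPM were higher (80.4%, background 60.1%). At least 1.5-fold higher in fixed cells were 1 assembly factor in HCT-116 (2.13%, background 12%) and 7 in HepG2 (15.2%, background 15.5%), and 0 were lower in either (background 16.2% and 17.3%). With ribosomal RNA left out the HCT-116 median was -0.07, with 14 of 47 higher (29.8%, beside 35.8% of all genes). There, 4 were at least 1.5-fold lower (8.51%, beside 25.7% of all genes). The HepG2 median was then 0.15, with 65.2% higher, beside 48.2% of all genes. The 1 factor at least 1.5-fold higher in HCT-116 as deposited was SDHAF4, which helps to mature SDHA, at 0.93, and it had 0.69 in HepG2. CYC1, a catalytic subunit of complex III outside the symbols used, had 0.00 in both lines, and cytochrome c itself, CYCS, 0.40 and 0.42. The 8 regulators with a mean of at least 1 TPM had medians of -0.18 and -0.21, beside 0.17 and 0.15 for all genes. POLRMT, the mitochondrial RNA polymerase, had 24.6 ± 12.9 TPM in live HCT-116 cells and 4.08 ± 5.08 TPM in fixed ones (-2.59) and 7.10 ± 5.04 and 1.96 ± 3.57 TPM in HepG2 (-1.86). The nuclear receptor ESRRA had -1.85 and -1.005 and the coactivator PPRC1 -1.05 and -0.44, whereas TFAM, which packs mitochondrial DNA, had 0.48 and 0.50. Smaller or mixed ratios were found for NRF1 (-0.30 in HCT-116 and -0.32 in HepG2), GABPA (-0.05 and 0.51) and GABPB1 (0.26 and -0.10).

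Between the lines, 8 of 47 assembly factors were at least 1.5-fold higher (17%, background 32.4%) and 12 lower (25.5%, background 27.9%) in HepG2-labelled cells among live ones. Among fixed cells 11 of 46 were higher and 11 lower (23.9% each, background 32.5% and 27.6%). COX14, an early factor of complex IV assembly, had 60.9 ± 30.6 against 192.1 ± 53.1 TPM live (1.66) and 81.6 ± 37.4 against 302 ± 78.4 TPM fixed (1.89). SDHAF3, which serves the iron-sulfur maturation of SDHB, had 17.8 ± 10.6 TPM in live HCT-116 cells and 20.1 ± 11.9 TPM in fixed ones, but 0.00382 TPM in live HepG2-labelled cells and was listed at 0 in fixed ones. NDUFAF3 and NDUFAF4, assembly factors of complex I, had -1.44 and -1.53 live and -1.57 and -1.24 fixed.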

How the data were processed

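Single HCT-116 and HepG2 cells were sequenced with Smart-seq2. Per the labels and the methods, the authors ran kallisto 0.46.0 against GRCh38 and gathered genes with tximport; the gene table deposited for each line is in TPM. The transcript tables deposited beside it are in CPM, with no division by length. Columns name a line and a treatment, and each was used as 1 cell of that group; 4 HCT-116 and 8 HepG2 labelled cells have no column.

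Members, lists and alternatives were chosen with earlier results of these data known. For each gene the log2 ratio of mean TPM was taken, without a pseudocount, for genes with a mean of at least 1 TPM over both groups, and 1.5-fold served as a mark of size. Complexes were summarised by medians beside all genes and genes of at least 100 TPM. Correlations used log2(TPM + 1). Intervals for shares of cells are exact 95% binomial ones. Depth was read from the steps of the CPM values, to the nearest 0.1 M reads.

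Named genes are, per complex, the highest and lowest members, the 2 largest ratios each way, and core, catalytic and isoform genes. Genes named beyond these for transcript usage, read-throughs, GC content, promoters or outlying cells were chosen after their values were seen. So were the single carriers, assembly factors and regulators named. The alternatives were other scalings (median ratio over 4777 genes, ribosomal RNA left out), other summaries over cells and no filter. Others were cells paired on total reads, NDUFA4 counted in complex IV, and columns left out. Scripts used Python 3.11.15, numpy 2.4.6, pandas 2.3.3, scipy 1.17.1 and matplotlib 3.10.9 and were tested on simulated data.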

Additional observations from a re-analysis of the deposited data

How the results depend on the processing

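Of 412 values under alternative settings, 371 stayed within the spread over members or cells (counts within 1.5 times) and 41 moved. No complex median was at least 1.5-fold apart as deposited, so the count of such medians that changed sign could only be 0. The values that stayed include some that a setting cannot move, such as live comparisons of the lines when fixed columns are left out. Of 195 complex medians under alternative settings, 6 changed sign. For fixed to live in complex II, HCT-116 went from 0.27 to -0.04 with ribosomal RNA left out, and HepG2 from 0.11 to -0.07 with median-ratio rescaling, to -0.05 with ribosomal RNA left out and to -0.05 with median-ratio rescaling and the equal columns left out. For HepG2 to HCT-116 in live complex V, -0.04 became 0.11 and 0.01 under median-ratio rescaling, with and without the equal columns. With ribosomal RNA left out, the other fixed to live medians of HCT-116 were 0.015 for complex I, 0.040 for III, 0.025 for IV and 0.070 for V. The ribosomal share differs between treatments, which this alternative removes by its construction. In HepG2 it also removes a difference in listed TPM per cell, and these were not separated. With NDUFA4 counted in complex IV, the fixed to live medians still ran from 0.27 to 0.38 over the complexes in HCT-116. In HepG2 they ran from 0.11 to 0.53. Of HCT-116 members, 0 were 1.5-fold lower with median TPM over cells (all genes 22.1%). With no filter on the mean, 2 were higher and 3 lower (all genes 20.1% and 24.1%), and with cells paired on total reads (53 per treatment) 1 was higher and 0 lower (15% and 17%). Of HepG2 members, 0 were 1.5-fold higher with median-ratio rescaling, with ribosomal RNA left out, and with median-ratio rescaling and the equal columns left out. All genes had 7.76%, 9.09% and 8.19% there. There were 20 with the mean of log2(TPM + 0.1), where 13.2% of all genes and 18% of those of at least 100 TPM were, and 42 with cells paired on total reads (38 per treatment), where 38.1% of all genes of at least 100 TPM were. For these last 2 the cause was not tested. The count lower in HepG2 was 2 under median-ratio rescaling, with and without the equal columns, with ribosomal RNA left out, with either mean of log2 values and with no filter, where 14% to 30.4% of all genes were.

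With transcript CPM, which is not divided by length, in place of TPM, the shares of complexes I to V were 27.5%, 4.62%, 12.3%, 18.02% and 37.6% in live and 27.02%, 4.28%, 12.1%, 18.7% and 37.9% in fixed HCT-116 cells. In HepG2 those of II to V were 3.62%, 10.52%, 23.01% and 31.7% live and 2.83%, 10.49%, 24.1% and 32.7% fixed. The median correlation between complexes in fixed HCT-116 cells was 0.10 with median-ratio rescaling. The median coefficient of variation in HepG2 was 0.66 live and 0.53 fixed with median-ratio rescaling, and 0.31 and 0.32 when the equal columns were also left out. Leaving out the 6 very similar columns, and the last combination of settings, were chosen after seeing the data. No paired analysis was possible because cells carry only running numbers that link no live cell to a fixed one. Depth limits the members under 1 TPM, for which no direction was read.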
